A study of Mus musculus with 123 samples.

Results

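The 8 genes described here encode regulators of muscle transcription: Srf, its coactivators Myocd, Mkl1 and Mkl2, the MADS-box factors Mef2a and Mef2d, the lysine methyltransferase Smyd1 and the homeodomain-only protein Hopx. They were taken by name from the 23337 gene symbols of a single-cell RNA-seq table, and all 8 were in it. Their levels were compared between cells from mouse hearts at 2 embryonic ages, E9.5 and E12.5, and on postnatal day 1 (P1).

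Srf binds a short AT-rich element, the CArG box, as a dimer and drives different genes with different partners. With myocardin or the related MRTF proteins (MRTF-A and MRTF-B, encoded by Mkl1 and Mkl2) it drives contractile and cytoskeletal genes, and with the ternary complex factors it drives immediate early genes. MRTF proteins are held in the cytoplasm by free actin monomers, so that actin assembly bears on them, whereas myocardin is found in the nucleus of cardiac and smooth muscle cells. Mef2 proteins bind another AT-rich element in muscle genes and are restrained by class IIa histone deacetylases, and Smyd1 and Hopx act in the developing myocardium, where Hopx, which cannot bind DNA by itself, opposes Srf.

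All cells came from hearts of αMHC-GFP mice, a strain in which the Myh6 (α-myosin heavy chain) promoter drives GFP, and all were sorted for GFP, so that activity of that promoter chose the cells at each age. No treatment or other genotype was compared. Single cells were captured on Fluidigm C1 chips, and full-length cDNA was sequenced. Hearts were digested with collagenase for 30 min at E9.5 and E12.5 and with Liberase for longer at P1, so age and digestion cannot be told apart in a comparison with P1.

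A cell was used if 2000 genes or more had a count in it, as in all 42 of E9.5, all 29 of E12.5 and 41 of the 52 of P1. Each cell is a sample of its own in the labels, which name no animal, litter or chip, so each time point counted as 1 sample and no p-value was computed. The prefixes of the cell titles, called naming sets here, gave the only spread within an age. E9.5 held set C (14 cells) and set N530 (28 cells), E12.5 held set C (20 cells), set N523 (8 cells) and 1 cell titled E12-5b, and all P1 cells were in set C. Values given for the 3 ages stand in the order E9.5, E12.5 and P1. Total counts per cell were 268301 to 6351742, 148258 to 7711355 and 69522 to 327360 over the 3 ages, and the naming sets N530 and N523 were the deep ones, with medians of 3151946 and 4895287.5. At least 4 of the CM (cardiomyocyte) genes Myh6, Actc1, Ttn, Tnnt2 and Tnnc1 reached 10 CPM (counts per 1000000 counts of the cell) in 39 of 42, 29 of 29 and 41 of 41 cells of the 3 ages. Macrophage markers were at 0 or near 0 in all but 1 P1 cell.

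A level is given as the mean over cells of the CPM of each cell. A gene was called higher or lower between ages when this mean differed 2-fold or more and when the direction was the same in every pairing of naming sets of 6 or more cells. A group with no count was set to 3 counts of its summed total. The same rule was applied to the 12159 genes found in 3 or more kept cells, and the share of them that it called is the background for each count. Alternatives to this processing were run, and a gene's tally counts only those that could move its comparison, 14 from E9.5 to E12.5 and 15 for each comparison with P1. The 1.5-fold and 4-fold thresholds are not in these tallies, and at 4-fold the only one of the 8 genes called was Hopx from E9.5 to P1. The value after ± is the SD of the log2 ratio over the pairings of naming sets, 4 between the embryonic ages and 2 in a comparison with P1. All P1 cells are in 1 naming set, so both pairings with P1 share the same P1 mean. There the SD measures only the gap between 2 embryonic sets and holds no spread of P1, so a small value does not mean a precise ratio.

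The promoters of Srf, Mef2a and Hopx are shown because each carries the binding motif of a factor among the 8, and because these 3 genes were called in the same direction between P1 and E9.5 in at least 14 of 15 alternatives at 2-fold. The sequences are from RefSeq (GRCm38.p6), which had a promoter entry for 7 of the 8 genes. Each entry spans 250 bases before the start of transcription and the first 50 transcribed bases. Below, 150 bases are printed for each gene from 5′ to 3′ on the transcribed strand, with the motif in capitals: CArG boxes in Srf (chr17:46556163-46556312, minus strand) and Hopx (chr5:77115124-77115273, minus strand), and a MEF2 site in Mef2a (chr7:67372851-67373000, minus strand).
Srf: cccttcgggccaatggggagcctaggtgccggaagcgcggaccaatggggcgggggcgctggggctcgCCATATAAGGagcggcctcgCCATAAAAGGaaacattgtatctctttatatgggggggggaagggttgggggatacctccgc
Hopx: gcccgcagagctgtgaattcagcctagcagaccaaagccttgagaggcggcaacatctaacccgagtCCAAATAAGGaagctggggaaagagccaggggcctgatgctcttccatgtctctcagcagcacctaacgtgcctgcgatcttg
Mef2a: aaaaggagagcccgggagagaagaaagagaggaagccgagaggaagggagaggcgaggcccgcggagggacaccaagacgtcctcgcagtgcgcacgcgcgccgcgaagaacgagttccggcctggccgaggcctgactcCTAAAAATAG

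The Srf promoter held 2 CArG boxes, whose first bases lie at -82 and -62 from the start of transcription. The first of 2 Hopx promoters held 1, at -83. The MEF2 site of Mef2a began at -2 and ran over the start, and a further MEF2 site lay at -165 in the third of the 3 Mkl2 promoters. Both motifs were searched on both strands. A CArG box was in 1.63% of the 32851 mouse promoters of this length and a MEF2 site in 3.19%. The promoters of Mef2d, Smyd1 and Mkl1 held neither motif in these windows, and Myocd had no entry. A match of letters is a description of the sequence and does not show that a factor bound there.

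Srf (chr17:46548329-46556175, minus strand, GRCm38) was found in fewer cells, and at a lower mean level, after birth. The gene had 1 count or more in 30 of 42 E9.5 cells (71.4%, exact 95% binomial interval 55.4 to 84.3), 22 of 29 E12.5 cells (75.9%, 56.5 to 89.7) and 10 of 41 P1 cells (24.4%, 12.4 to 40.3). These intervals cover counting error only. Depth differed between the ages, and after thinning to 100000 counts, which 38 of the 41 P1 cells and every embryonic cell reached, the expected share was 48.8% (set C) and 66.9% (N530) at E9.5, 55.6% (set C) and 46.9% (N523) at E12.5, and 25.7% at P1. All P1 shares at equal depth given here rest on those 38 cells. The P1 share thus stood below each embryonic set at equal depth.

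At E9.5 the median Srf level was 7.76 CPM for set C and 23.5 CPM for set N530, with highest cells of 420 and 451 CPM. At E12.5 these medians were 14.5 CPM for set C and 5.15 CPM for set N523, with highest cells of 226 and 261 CPM, and the lone E12-5b cell held 444 CPM. At P1 the median was 0 and the highest cell held 635 CPM, which was 65.0% of the P1 sum. Each naming set had cells at 0, so the ranges of the cells overlapped between all ages. Means over the cells of the 3 ages were 69.6, 53.6 and 23.8 CPM.

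From E9.5 to P1 the log2 ratio of Srf was -1.55 ± 0.45, lower in both pairings of naming sets, and the call was the same in 14 of 15 alternatives. The exception left out the 32 cells with markers of other cell types, and there the ratio was -0.98, just under 2-fold. From E9.5 to E12.5 the ratio was -0.37 ± 0.39 and was not called. All 4 pairings of naming sets were lower, from -1.27 to -0.42. Without the lone E12-5b cell this ratio was -0.81, still not called. Within set C alone it was -1.27 and would have been called lower. For Srf from E12.5 to P1 the ratio was -1.17, past the 2-fold threshold, while the pairings of naming sets gave only -0.88 and -0.67. The lone E12-5b cell, which is in no naming set of 6 cells, decided that call: without it the ratio was -0.74 and was not called. In all, 9 of 15 alternatives kept that call. Leaving out the highest cell of each age moved the ratios the other way, to -2.21 from E12.5 to P1 and -2.82 from E9.5 to P1, with a P1 mean of 8.55 CPM.

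Myocd (chr11:65176561-65269989, minus strand), the gene of myocardin, kept about the same mean level at the 3 ages: 266.4, 264.3 and 263.3 CPM. It was found in 37 of 42, 22 of 29 and 34 of 41 cells. The median cell held 147 CPM (set C) and 176 CPM (N530) at E9.5, 248 CPM (set C) and 37.3 CPM (N523) at E12.5, and 242 CPM after birth. The highest cells ranged from 524 CPM in set C at E9.5 to 2259 CPM in set N530. Levels of single cells therefore spread over far more than the difference between ages. The log2 ratio was -0.01 ± 0.53 from E9.5 to E12.5, -0.01 ± 0.28 from E12.5 to P1 and -0.02 ± 0.59 from E9.5 to P1. Its sign differed between naming sets in each comparison, and the values over sets from E9.5 to P1 ran from -0.25 to 0.59. Myocd was called in none of the alternatives of any comparison.

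Mkl2 (chr16:13256481-13417529, plus strand), the gene of MRTF-B, was found in 30 of 42, 16 of 29 and 16 of 41 cells. After thinning, its expected share was 60.3%, 51.9% and 41.4%. Mean levels were 149, 132 and 94.6 CPM, and the medians were 40.7, 22.3 and 0 CPM. The sets differed at E9.5: set C had a mean of 227 CPM, a median of 173 CPM and an expected share of 78.2%. Set N530 had 110 CPM, 15.6 CPM and 51.3%. At E12.5 the means were 148 CPM (set C) and 62.8 CPM (N523). The log2 ratio from E9.5 to P1 was -0.65 ± 0.74, with -0.22 in the pairing with set N530. Mkl2 was not called in any comparison. It would have been called lower in 3 of 15 alternatives: within set C alone (-1.26), with deposited TPM (-1.03) and with means of log2(CPM + 1) (-1.60). With log2(CPM + 1) it would also have been called lower from E12.5 to P1 (-1.04). Other values had the opposite sign: pooled counts gave 0.14 from E9.5 to P1 and 0.46 from E12.5 to P1. The pairing of P1 with set N523 gave 0.59.

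Mkl1 (chr15:81012281-81190757, minus strand), the gene of MRTF-A, was found in few cells or none at each age. It had counts in 4 of 42 cells at E9.5 and in 3 of 29 at E12.5, with a highest cell of 37.1 CPM. None of the 41 P1 cells had a count, which with 3 counts allowed means a level of up to 0.440 CPM of the summed counts. From E9.5 to P1 the log2 ratio was -1.01 against that limit, and the call of lower held in 3 of 14 alternatives, deposited TPM giving no ratio. When cells of 1000 or more genes were admitted, 1 more P1 cell brought 15 counts and turned the ratio to 1.93. Without the 32 cells with markers of other cell types it was 1.65, again against the limit, since the remaining E9.5 cells were lower than that limit. The depth at P1 does not settle the direction for Mkl1.

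Deposited TPM, which are scaled per length, allow the coactivators to be set side by side. Over the 3 ages the mean TPM of Myocd was 122, 94.4 and 85.9, that of Mkl2 was 36.4, 27.4 and 17.8, and that of Mkl1 was 0.400, 0.894 and 0. Myocd stood above Mkl2 at each age and in each naming set of 6 or more cells, with the closest values, 71.0 against 52.5, in set C at E9.5. At least 1 of the 3 coactivators was found in 41 of 42, 26 of 29 and 37 of 41 cells. Myocd was found together with Srf in 29, 16 and 6 cells, and without Srf in 8, 6 and 28. At P1 most cells with the coactivator thus had no count of Srf at this depth.

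**Figure D1:**
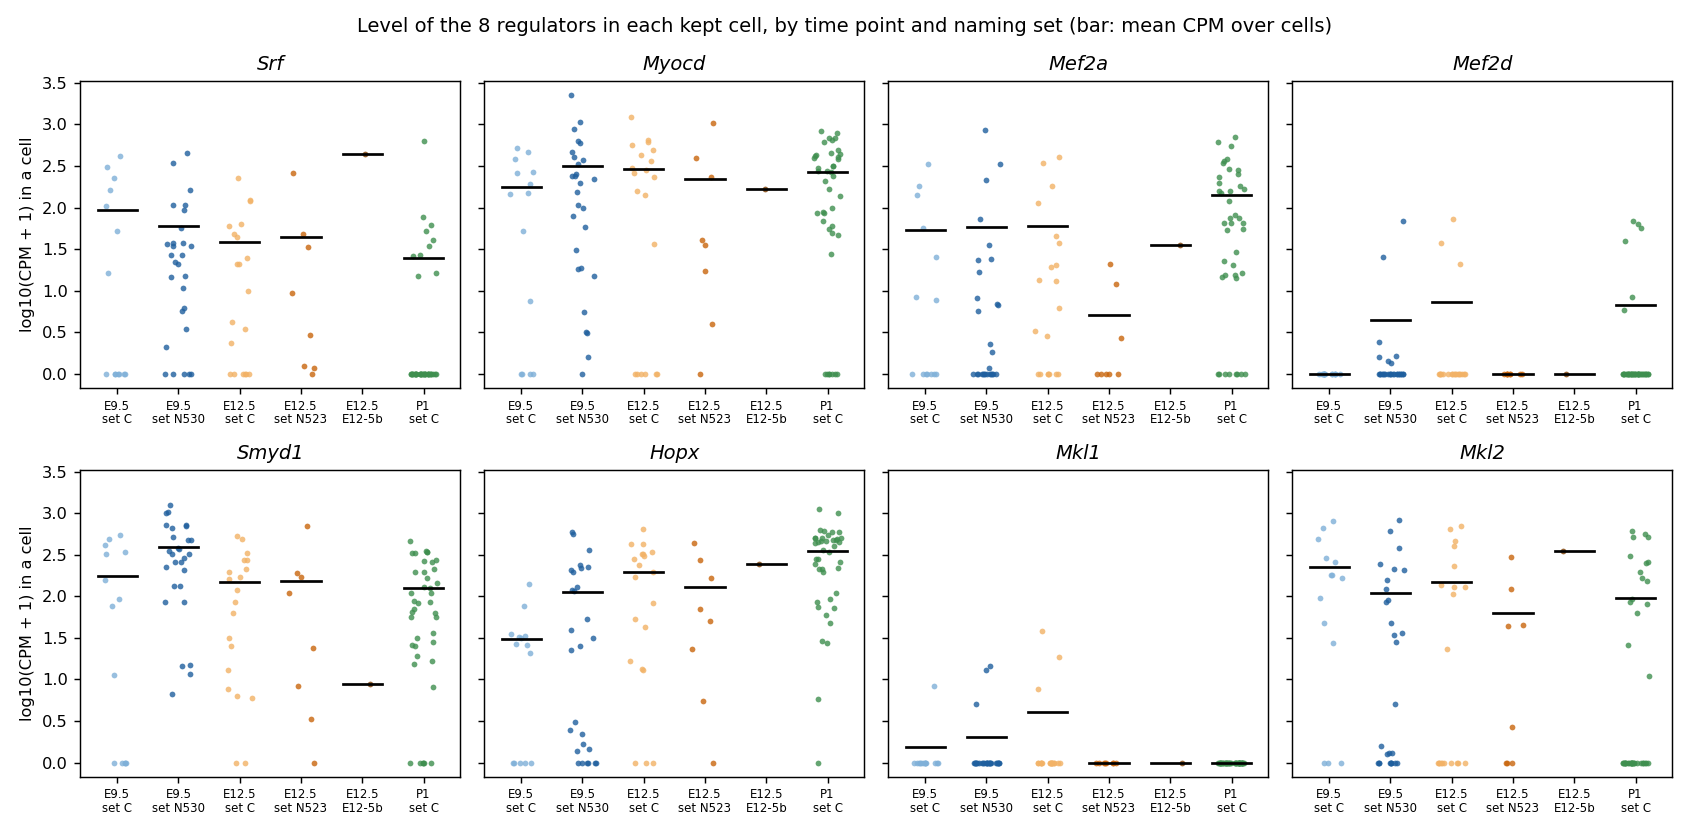
Each point is 1 kept cell, placed by time point and naming set (x axis) and by log10(CPM + 1) of the gene (y axis), and the bar is the mean CPM of the set drawn on the same scale. Most P1 cells are at 0 for Srf, the P1 cells crowd high for Hopx and Mef2a, and cells at 0 occur in every set of 6 or more cells for 7 of the 8 genes, all but Smyd1.

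Mef2a (chr7:67231163-67372858, minus strand) was higher at P1 than at both embryonic ages. It had counts in 22 of 42 E9.5 cells (52.4%, interval 36.4 to 68.0), 17 of 29 E12.5 cells (58.6%, 38.9 to 76.5) and 33 of 41 P1 cells (80.5%, 65.1 to 91.2). At equal depth the expected share was 37.3%, 44.1% and 82.6%. The P1 libraries were the shallowest and yet held the gene most often.

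At E9.5 the median Mef2a level was 3.40 CPM for set C and 0.505 CPM for set N530, with highest cells of 331 and 862 CPM. The E12.5 cells of set C had a median of 8.73 CPM, with a highest cell of 408 CPM, and those of set N523 a median of 0, since 3 of 8 cells held the gene and none above 20.1 CPM. At P1 the median was 64.5 CPM and the highest cell held 701 CPM. The cells at P1 overlapped with those at each embryonic age, since 8 P1 cells were at 0. The mean level was 55.8, 43.6 and 141 CPM at the 3 ages.

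The log2 ratio of Mef2a was 1.34 ± 0.07 from E9.5 to P1, and 1.40 and 1.31 in the pairings with set C and set N530. It was called higher in 14 of 15 alternatives, and the exception was deposited TPM, with 0.85. From E12.5 to P1 the ratio was 1.70 ± 2.73, called higher in all 15 alternatives. That wide spread came from set N523, where the mean was 4.11 CPM against 59.8 CPM in set C, so that the pairings gave 5.10 and 1.24. Within E12.5 the 2 naming sets were farther apart for this gene than the ages were. Mef2a shares 302 exonic bases (2.06%) with Lysmd4 on the other strand, which was found in 15 cells.

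Mef2d (chr3:88142372-88172086, plus strand) was found in 7 of 42, 3 of 29 and 6 of 41 cells, at means of 2.27, 4.42 and 5.83 CPM. The median was 0 in every naming set, set C at E9.5 and set N523 at E12.5 had no count at all, and the highest cells held 67.6, 72 and 68.5 CPM. The ratio from E9.5 to P1, 1.36 ± 1.89, was called higher and remained so in 9 of 15 alternatives, and 1 cell held 70.8% of the E9.5 sum. In addition, Mef2d shares 531 exonic bases with the antisense gene 1700113A16Rik, which was found in 39 cells. The library kit does not mark the strand, so reads of the 2 genes in the shared bases cannot be told apart.

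Mef2c, the family member that drives early heart development, is not one of the 8 genes and went the other way in these cells. Its mean TPM was 218, 63.2 and 33.5, against 45.4, 28.5 and 81.6 for Mef2a. Mef2a thus made up 17.2%, 31.1% and 70.9% of the summed TPM of both genes. The share was 20.3% and 16.3% in the 2 naming sets at E9.5. The E12.5 cells gave 46.3% for set C and 2.33% for set N523, so the middle age had no single value. In single cells, Mef2c was found without Mef2a in 19 of 42, 9 of 29 and 6 of 41 cells, and Mef2a without Mef2c in 1, 1 and 11 cells.

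**Figure D2:**
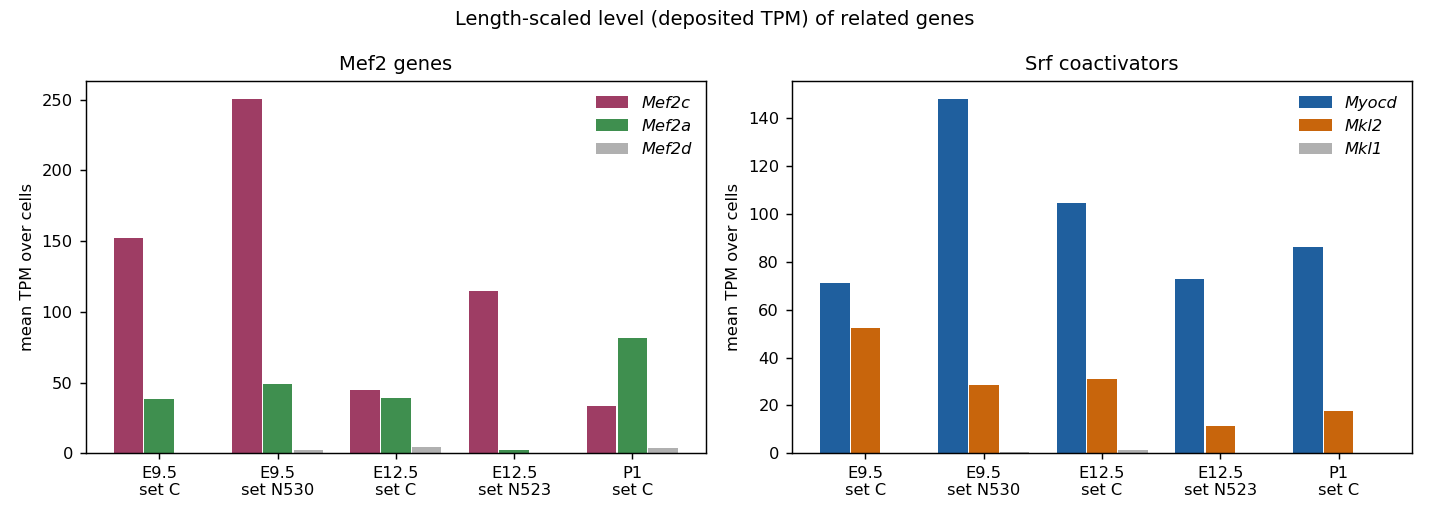
Bars show the mean deposited TPM (y axis) over the cells of each naming set of 6 or more cells, for the Mef2 genes on the left and the Srf coactivators on the right. Mef2c is the highest of the Mef2 genes in all 4 embryonic sets and Mef2a at P1, and Myocd is above Mkl2 in every set.

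Smyd1 (chr6:71213940-71322233, minus strand), a muscle-restricted histone methyltransferase needed for cardiac morphogenesis, was present in most cells of each age: 37 of 42, 26 of 29 and 35 of 41. Its median level was 83.6 CPM (set C) and 322 CPM (N530) at E9.5, 101 CPM (set C) and 65.2 CPM (N523) at E12.5, and 81.3 CPM at P1. In set N530 all 28 cells held the gene, from 5.69 to 1244 CPM, and the highest cells elsewhere were between 465 and 702 CPM. Set N530 was the group that stood high, while set C at E9.5 overlapped with the later ages and had 5 cells at 0.

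Means of Smyd1 were 319, 144 and 124 CPM. The log2 ratio was -1.14 ± 0.68 from E9.5 to E12.5 and -1.36 ± 0.83 from E9.5 to P1, both called lower. The step from E12.5 to P1 was -0.22 ± 0.01 and was not called. The 2-fold size rested on set N530: within set C the ratios were -0.22 to E12.5 and -0.48 to P1, of the same sign and under 2-fold. The call from E9.5 to E12.5 held in 10 of 14 alternatives and was also lost with TMM factors, with log2(CPM + 1) and with equally weighted naming sets (-0.92). That from E9.5 to P1 held in 13 of 15 and was also lost with log2(CPM + 1). Of the 5 set C cells without Smyd1, 3 also lacked the CM markers.

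Hopx (chr5:77086988-77115121, minus strand) showed the largest log2 ratio of the 8 in size between E9.5 and P1, as it did in 10 of 15 alternatives. Srf was ahead of it with deposited TPM, with cells of 3000 genes or more and without the highest cell of each gene, and Smyd1 with pooled counts and in the deep naming sets. Counts were present in 31 of 42 E9.5 cells (73.8%, interval 58.0 to 86.1), 25 of 29 E12.5 cells (86.2%, 68.3 to 96.1) and 40 of 41 P1 cells (97.6%, 87.1 to 99.9). At equal depth the expected share was 59.6%, 81.6% and 96%. The order of the ages was the same with and without thinning.

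At E9.5 the median Hopx level was 25.3 CPM for set C and 27.3 CPM for set N530, with highest cells of 140 and 596 CPM. At E12.5 it was 183 CPM for set C and 60 CPM for set N523, with highest cells of 639 and 435 CPM, and 355 CPM at P1, with a highest cell of 1124 CPM. The P1 median stood above every cell of set C at E9.5, although some cells of set N530 and of both E12.5 sets were above it. Means over the 3 ages were 84.5, 177 and 349.9 CPM.

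The log2 ratio of Hopx was 2.05 ± 1.35 from E9.5 to P1, between 1.64 and 3.56 over the naming sets, and it was called higher in all 15 alternatives. From E9.5 to E12.5 it was 1.07 ± 1.16 and was called higher. That call held in 9 of 14 alternatives. The ratio was 0.18 between the deep sets N530 and N523, 0.10 with pooled counts, 0.89 with deposited TPM and 0.96 without the 4 cells lowest in CM markers, and the call was also lost in the cells with CM markers. From E12.5 to P1 it was 0.98 ± 0.43, just under 2-fold, and 9 of 15 alternatives put it past that threshold. Hopx shares 412 of its exonic bases (27.2%) with the antisense gene Hopxos, and without strand the reads there cannot be told apart.

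**Figure D3:**
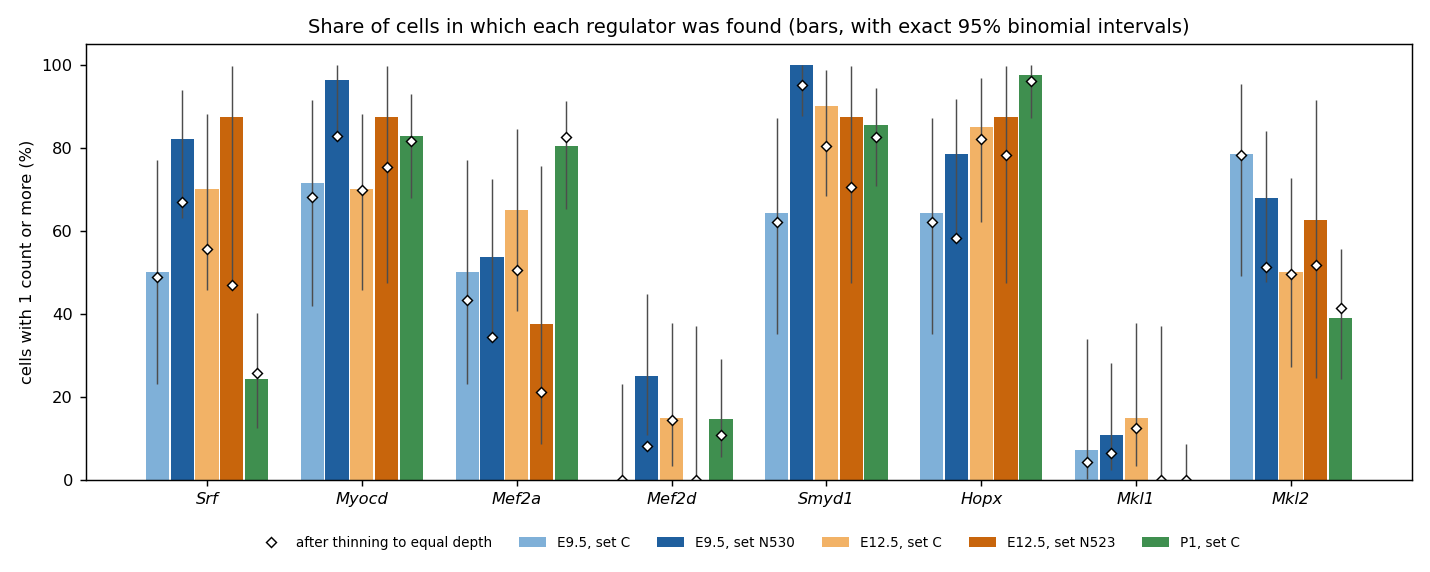
Bars show the percent of cells with 1 count or more of each gene (y axis) by time point and naming set, with exact 95% binomial intervals as lines and the expected percent after thinning to 100000 counts as diamonds (38 of the 41 P1 cells). Srf is lowest and Hopx and Mef2a are highest at P1, also after thinning.

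Of the 8 genes, 1 (Hopx) was called higher and 1 (Smyd1) lower from E9.5 to E12.5, where 7.99% of all 12159 genes were called higher and 18.2% lower. From E12.5 to P1, 1 (Mef2a) was called higher and 1 (Srf) lower, against a background of 20.5% higher and 20.2% lower. From E9.5 to P1, 3 (Hopx, Mef2a and Mef2d) were called higher and 3 (Srf, Smyd1 and Mkl1) lower, against 18.8% higher and 33.5% lower. The counts are small, and those of the first 2 comparisons and the lower count of the third are near the background. The median log2 ratio of all genes was -0.24, -0.30 and -0.61 in the same order. With TMM factors in place of total counts these medians moved by 0.13, 0.07 and 0.21, and with deposited TPM by -0.16, -0.10 and -0.20. No called ratio of the 8 genes changed sign under either scaling.

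**Figure D4:**
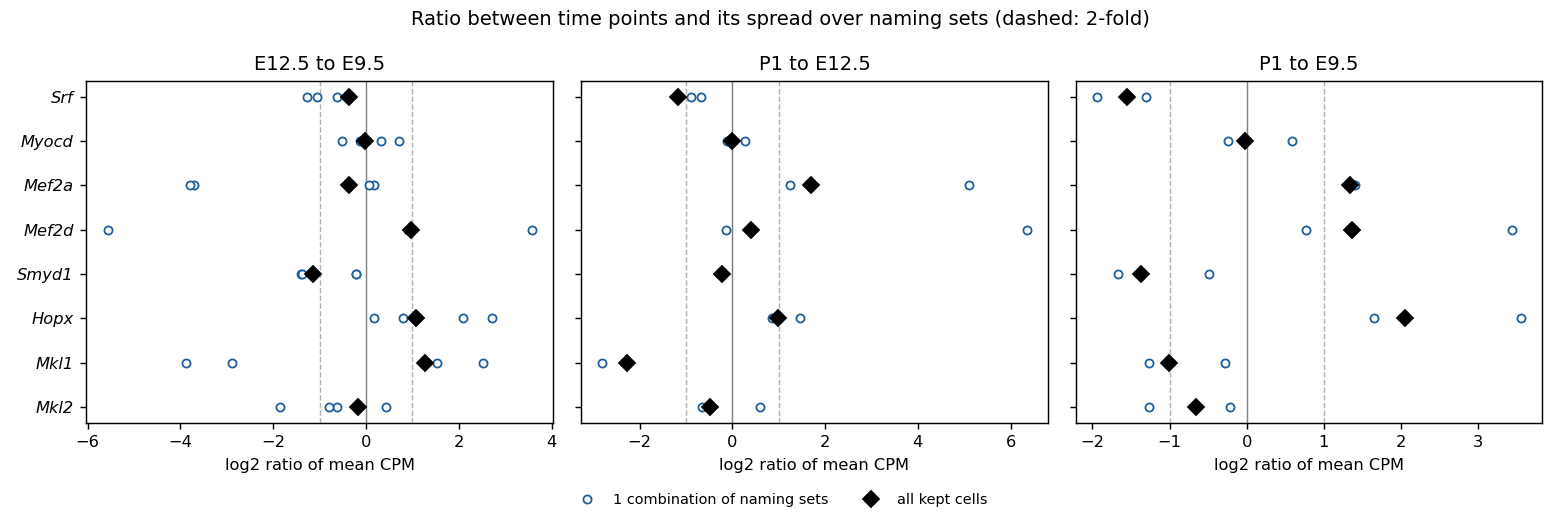
Diamonds show the log2 ratio of mean CPM over all kept cells (x axis) for each gene in the 3 comparisons, circles show the ratio for each pairing of naming sets of 6 or more cells, and dashed lines mark 2-fold, with the ratios of Mkl1 to P1 set by the limit of 3 counts. The same limit sets the circles of Mef2d that use set C at E9.5 or set N523, and those of Mkl1 that use set N523. The circles lie on both sides of 0 for Myocd in each comparison and to the right of 1 for Hopx and Mef2a from E9.5 to P1.

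By deposited TPM the order of the 8 genes changed with age. Smyd1 was first at E9.5 (211 TPM), ahead of Myocd (122 TPM) and Hopx (118 TPM), which did not differ beyond their spread over naming sets. Hopx was first at E12.5 (219 TPM) and at P1 (383 TPM), with Myocd next at both. Mef2a came after those 3 at E9.5 and ahead of Smyd1 at P1 (81.6 against 61.2 TPM). Srf came below Mkl2 at each age, with 35.6, 25.3 and 10.1 TPM, and Mef2d and Mkl1 were the last 2 throughout. Over the naming sets Hopx was first in both E12.5 sets and Smyd1 in both E9.5 sets. Places further down changed between sets at both embryonic ages: in set N523 Smyd1 (76.8 TPM) was ahead of Myocd (72.9 TPM) and Srf (17.7 TPM) ahead of Mkl2 (11.5 TPM) and Mef2a (2.73 TPM), and at E9.5 Mef2a, Mkl2 and Srf stood in a different order in each set.

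Mef2d and Mkl1 were found in 14.3% and 6.25% of the kept cells, too few to be compared with other genes here. Of the rest of the 8, Hopx had the closest companions. Over all kept cells, and against the 5985 genes found in 25% or more of them, Pearson's r of ln(counts per 10000 + 1) was 0.635 with Uqcrq, a subunit of respiratory complex III, 0.627 with Pln, the phospholamban that restrains the calcium pump of the sarcoplasmic reticulum, and 0.580 with Myoz2, a protein of the Z-disc. For Srf only 1190007F08Rik, with 0.537, reached 0.5. The highest values were 0.413 for Smyd1, 0.408 for Mef2a, 0.374 for Mkl2 and 0.365 for Myocd. The cells share ages, chips and depth, and these values describe them without a test.

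The 4 cells lowest in summed CM markers (4.35 to 267 CPM over 6 genes, chosen after their values were seen) were 3 cells of set C at E9.5 and 1 P1 cell. None of the 4 had a count of Smyd1 and 1 had Myocd and Srf. Mkl2 was found in 3 of them, with 655 CPM in the cell with the least CM marker signal and 564 CPM in the P1 cell. That P1 cell held 7804 CPM of summed endothelial markers, and 1 of the E9.5 cells held 1904 CPM. Over all kept cells the sum of these 6 endothelial markers had a median of 0 at each age, and it reached 100 CPM in 5 E9.5 cells, no E12.5 cell and 1 P1 cell. Without the 4 cells the ratios from E9.5 to P1 were -1.61 for Srf, 1.26 for Mef2a, -1.44 for Smyd1 and 1.98 for Hopx, with the same calls.

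Some markers of other cell types also changed with age. The summed level of 5 smooth muscle and pericyte markers had means of 86.1, 3.32 and 14.4 CPM and reached at most 1694, 76.8 and 399 CPM in a cell. That of 6 fibroblast markers had means of 155, 47.7 and 2.73 CPM, with 100 CPM or more in 6, 3 and 1 cells, and that of 5 epicardial markers 116, 98.9 and 19.8 CPM, with 100 CPM or more in 7, 8 and 3 cells. Epicardial markers were not lower at E12.5 within set C (94.2 against 136.5 CPM), and the P1 means of endothelial and macrophage markers, 190 and 15.5 CPM, came each from 1 cell, with 7804 and 636 CPM. The lowest cell of each age held none of the 3 sets. At P1, 3 of the 5 smooth muscle and pericyte markers, 5 of the 6 fibroblast markers and 4 of the 5 epicardial markers had no count. Myh11, the myosin that defines smooth muscle, had counts in 2 E9.5 cells and in none of the later ages. Summed atrial markers had medians of 9182, 4104 and 392 CPM, while their means, 11553, 9940 and 11968 CPM, did not fall. Summed ventricular markers had medians of 3043, 6931 and 16664 CPM and means of 3294, 6060 and 14631 CPM. Set N523 at E12.5 went the other way, with an atrial median of 18068 CPM against 10802 CPM in set N530 at E9.5. The part of the atrial and ventricular markers in the values given here was not tested.

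The 32 cells with 100 CPM or more of summed endothelial, fibroblast, epicardial or smooth muscle and pericyte markers were 17 of the 42 E9.5, 10 of the 29 E12.5 and 5 of the 41 P1 cells. Without them, 3 of the 8 genes were called from E9.5 to P1: Hopx (2.60) and Mef2a (2.02) higher and Smyd1 (-1.44) lower, where 21.0% of all genes were higher and 28.0% lower on the same cells. Srf (-0.98) and Mef2d (0.38) were then under 2-fold. This set of cells was chosen after the marker levels were seen. Tbx18 made up 80.5 of the mean epicardial sum of 98.9 CPM at E12.5 and all of the 19.8 CPM at P1. The study reports high Tbx18 in embryonic cardiomyocytes with high cell cycle activity, so a cell left out for this marker can be a cardiomyocyte.

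Genes known as targets of Srf in the cytoskeleton and in smooth muscle were mostly lower at P1. Of 18 such genes, 12 were called lower and 1 higher from E9.5 to P1, with a median log2 ratio of -2.55 against -0.61 for all genes, of which 33.5% were called lower and 18.8% higher. The count of lower genes was 10 to 13 in every alternative. Between E12.5 and P1, 9 were lower and 1 higher (median -1.41), against 20.2% and 20.5% of all genes. From E9.5 to E12.5, 4 were lower and none higher (median -0.63), which is near the 18.2% of all genes that were lower. Without the 32 cells with markers of other cell types, 13 were lower and 1 higher from E9.5 to P1 (median -2.87), where 28.0% of all genes were lower and 21.0% higher on the same cells. From E12.5 to P1, 10 were then lower and 1 higher, against 17.2% and 23.6%, and from E9.5 to E12.5, 7 were lower and none higher, against 17.0% and 8.19%. The higher gene was Smtn (smoothelin) in both cases, with 14.4, 8.01 and 37.9 CPM at the 3 ages.

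Of the 3 most abundant genes of that list, Acta2 (smooth muscle α-actin) had means of 3329, 1688 and 1410 CPM and was called lower from E9.5 to P1, with a ratio of -1.24 ± 0.23. Tpm1 (tropomyosin) had 4734, 5220 and 8360 CPM, and Myl9 (a smooth muscle myosin light chain) 1134, 1383 and 989 CPM, and neither was called. The lowest ratio was that of Lmod1 (leiomodin, which nucleates actin filaments), found in 23 cells at E9.5, 1 at E12.5 and none at P1, where it was at least 106-fold lower than at E9.5 against the limit of 3 counts of the summed total. Next was Tagln (transgelin), with 969, 604 and 16.4 CPM and a ratio of -5.88 ± 0.47. Of the 10 other genes called lower, examples are Cnn1 (calponin), with 337, 445 and 45.6 CPM, and Myh9 (non-muscle myosin), with 314, 129 and 28.6 CPM. These 4 were picked after their values were seen. The drop did not have 1 timing: Cnn1 was not called between the embryonic ages (0.40 ± 0.27), while Myh9 was lower at both steps. Of the 16 genes of the list with a promoter entry, 3 (Cnn2, Myl9 and Vcl) held a CArG box in the window.

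Cardiac targets of Srf did not share that direction. Of 12 genes, 6 were called higher and 2 lower from E9.5 to P1 (median 1.09), 8 higher and 2 lower from E12.5 to P1 (median 1.41), and 2 higher and 3 lower from E9.5 to E12.5 (median 0.24). Over all genes 18.8% were higher and 33.5% lower, 20.5% higher and 20.2% lower, and 7.99% higher and 18.2% lower in the same order, so the last 3 of 12 lower genes are close to the background. Actc1 (cardiac α-actin) had 13900, 16977 and 25220 CPM, and its ratio of 0.86 ± 0.13 from E9.5 to P1 was under 2-fold. Tnnt2 (troponin T) had 1589, 2849 and 8888 CPM and was called higher at P1 against both embryonic ages. Myh6, whose promoter chose the cells, had 7294, 1605 and 11010 CPM and was called lower at E12.5 than at the other ages. The 2 genes called lower at P1 were Acta1 (skeletal α-actin), with 1678, 427 and 126 CPM, and Myl4 (the atrial light chain), with 2570, 2953 and 491 CPM. Of the 11 genes with a promoter entry, 3 (Acta1, Actc1 and Dmd) held a CArG box.

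Among 9 known Mef2 targets, 4 were called higher and none lower from E9.5 to P1 (median 0.82), 6 higher and none lower from E12.5 to P1 (median 1.06), and 1 higher and 1 lower from E9.5 to E12.5 (median -0.73). The shares of all genes called higher in these comparisons were 18.8%, 20.5% and 7.99%, those called lower 33.5%, 20.2% and 18.2%, and 1 of 9 in each direction is near the background. Ckm (muscle creatine kinase) had 0.795, 27.7 and 3290 CPM, a log2 ratio of 12.01 ± 0.62 from E9.5 to P1. Pgam2 (a glycolytic mutase) had 696, 1208 and 1593 CPM and was called higher at P1 against E9.5. Myom1 (the M-band protein myomesin) had 999, 363 and 756 CPM and was called higher at P1 against E12.5 only. Ckm and Des are in both this list and the cardiac Srf list.

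Immediate early targets of Srf were lower at P1 in 5 of the 7 genes tested from E9.5 to P1 (median -2.33), where 33.5% of all genes were lower and 18.8% higher, and none was higher. Between E12.5 and P1, 3 were lower, against 20.2% of all genes, and from E9.5 to E12.5, 2 were lower and 1 was higher, near the 18.2% and 7.99% of all genes. Fos had 451, 169 and 89.9 CPM, Egr1 157.5, 357 and 59.2 CPM, and Mcl1 72, 86.5 and 69.5 CPM. Fos and Egr1 were among the genes called lower at P1 against E9.5, and Mcl1 was not. Digestion differed between the embryonic hearts and P1, and its part in these values was not tested.

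The partners that direct Srf to immediate early genes, the ternary complex factors, were rare. Elk1 was found in 11, 3 and 2 cells at the 3 ages, Elk3 in 2, 1 and 1, and Elk4 in 5, 2 and 3. All 3 were called lower from E9.5 to E12.5 and 2 (Elk3 and Elk4) higher from E12.5 to P1, on at most 3 cells at either of the later ages. Of all genes, 18.2% were lower and 20.5% higher in those comparisons.

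**Figure D5:**
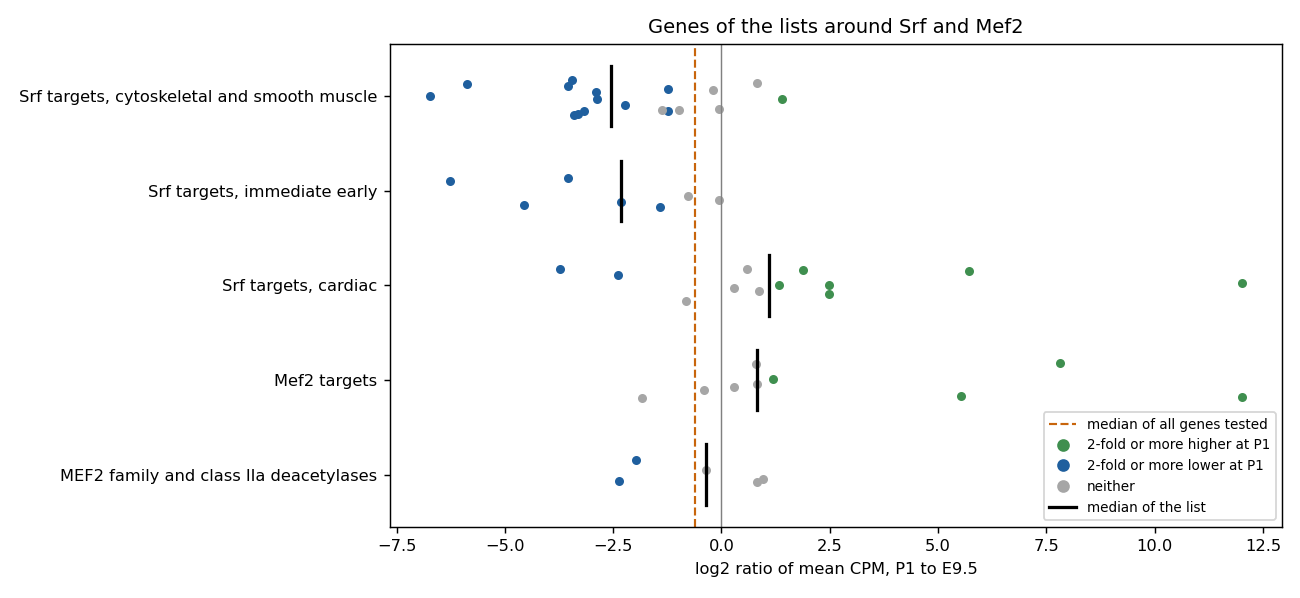
Each point is a gene of the list named on the y axis, placed by its log2 ratio of mean CPM from E9.5 to P1 (x axis) and coloured by whether it was called, with the list median as a black bar and the median of all genes tested, -0.61, as a dashed line (Lmod1 and Egr2, with no count at P1, are placed at the limit of 3 counts). The cytoskeletal and immediate early targets of Srf lie mostly to the left of that line and the cardiac Srf and Mef2 targets mostly to the right.

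Around the Mef2 proteins, Mef2c was the only MEF2 gene outside the 8 that could be compared, with a ratio of -2.36 ± 0.41 from E9.5 to P1. Mef2b did not reach 3 cells. Among the class IIa deacetylases Hdac9 had 29.0, 57.9 and 51.1 CPM and Hdac5 21.7, 18.1 and 16.9 CPM, and neither was called. Hdac4 had 15.1, 10.5 and 29.2 CPM, in 11, 4 and 5 cells, and was called higher from E12.5 to P1 (1.47 ± 5.47). Hdac7 had 4.62, 13.8 and 1.17 CPM, in 6, 6 and 2 cells, and was called higher from E9.5 to E12.5 (1.58 ± 1.62) and lower from E12.5 to P1 (-3.56 ± 1.72) and from E9.5 to P1 (-1.98 ± 1.01). Of the 4 Smyd1 relatives and Naca, whose muscle form binds Smyd1, 1 (Smyd2) was called higher and 1 (Smyd3) lower from E9.5 to P1, against 18.8% and 33.5% of all genes. Naca had 360, 349 and 452 CPM and Smyd2 48.1, 63.8 and 111.7 CPM, and Smyd5 had 30.5, 55.7 and 22.7 CPM and was not called in any comparison.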

How the data were processed

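GFP+ single cells of αMHC-GFP mouse hearts were captured on Fluidigm C1 chips and amplified with SMART-Seq V4. Capture sites were imaged, and no doublet caller was run here. The authors mapped single reads of the NextSeq with OLego and deposited 1 table of raw counts, 1 row per gene symbol, from featureCounts. The authors also deposited TPM (transcripts per 1000000) from custom scripts, on a linear scale, without stating gene lengths. The submitters' processing notes name GRCm38 and mm10. Cells and their ages were taken from the labels. Applying the study's minimum of 2000 genes to the deposited counts left out 11 of the 123 cells, and fewer remained than it describes. The symbol table of 23337 rows holds some symbols that read as dates, none among the genes named.

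CPM were computed from the counts (pandas 2.3.3, numpy 2.4.6). No test was possible with 1 sample per age. The spread is the SD over pairings of naming sets of 6 or more cells. Exact binomial intervals at 95% (scipy 1.17.1) and the limit of 3 counts for a count of 0 cover counting error only, since reads carry no molecular identifiers. P1 cells are the shallowest and bound what can be detected. The scripts were tested on simulated counts. TMM factors came from edgeR 4.0.16. Gene positions are from GENCODE M21 and promoters from RefSeq (GRCm38.p6), and Mkl1 and Mkl2 are listed there as Mrtfa and Mrtfb. No 2 kept cells had identical counts.

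1 further list of genes is not reported here. The 8 genes and the lists were chosen with earlier results of these data known. Named genes are the 8, the 3 of each list with the highest mean CPM over the ages, and genes on which a count turns, and for likeness those with r of 0.5 or more. Alternatives were pooled counts, deposited TPM, TMM factors, means of log2(CPM + 1), minimums of 1000 and 3000 genes, thinning to 100000 counts, single naming sets, leaving out titles ending in "no", cells with CM markers, leaving out the highest cell of each gene, 1.5-fold and 4-fold thresholds, and a minimum of 2 or 10 counts in place of 1 in a cell. Thinning was applied to shares of cells only. For ratios that alternative only left out the 3 P1 cells under 100000 counts, so it did not put ratios at equal depth. Leaving out the E12-5b cell, weighting naming sets equally, leaving out the 4 cells lowest in CM markers, leaving out cells with markers of other cell types and all alternatives for the cytoskeletal list were chosen after seeing the data.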

Additional observations from a re-analysis of the deposited data

Results flagged for a closer look

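The 11 P1 cells with fewer than 2000 genes were in no comparison, and 6 of the 8 genes had counts in them above the limit of 3 counts of their summed total, 4.2 CPM. Mean levels were 29.2 CPM for Srf (3 of 11 cells), 193 CPM for Myocd (8 cells) and 119 CPM for Smyd1 (6 cells). The highest cell held 52.1% of the Srf sum and, for Smyd1, 72.8%, and without the highest cell of each gene the means were 15.4 and 35.8 CPM. Mef2a had 497 CPM (7 cells), where 1 cell held 58.9% of the sum, and Hopx 529 CPM (11 of 11 cells), both above the means of 141 and 349.9 CPM in the kept P1 cells. Mkl1 had 15.9 CPM from 15 counts in 1 cell, whereas the 41 kept P1 cells had none. Mef2d and Mkl2 had no count in these 11 cells, and for Mkl2 the kept P1 cells had it in 39%.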

How the results depend on the processing

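No paired analysis was possible because the labels give no replicate number that links cells of different ages. Of the 8 genes, 2 were called from E9.5 to E12.5. That count was 1 with pooled CPM, deposited TPM, TMM factors, log2(CPM + 1), cells with CM markers, equally weighted naming sets or without the 4 cells lowest in CM markers, 4 in set C alone and 4 in the sets N530 and N523, and 0 at 4-fold. From E12.5 to P1 it was 2, and 4 with log2(CPM + 1) or without the highest cell of each gene, 3 with TMM factors, a minimum of 1000 genes, the sets N530 and N523, a 1.5-fold threshold or without the 4 cells lowest in CM markers, and 0 at 4-fold. From E9.5 to P1 it was 6, and 4 with pooled CPM, log2(CPM + 1), a minimum of 3000 genes or thinning. It was 5 with deposited TPM, TMM factors, set C alone, the sets N530 and N523, equally weighted naming sets, without titles ending in "no" or without the highest cell of each gene, 3 without the cells with markers of other cell types, 7 at 1.5-fold and 1 (Hopx) at 4-fold. The only called ratio that turned was Mkl1 from E9.5 to P1, to 1.93 with a minimum of 1000 genes and to 1.65 without the cells with markers of other cell types. Of 350 ratios under settings that could move them, 267 stayed within 1 SD of the value given and 81 went past it. That SD ran from 0.007 (Smyd1, E12.5 to P1) to 4.70 (Mef2d, E9.5 to E12.5). A ratio with a wide SD could thus move far and stay within it, so these counts do not measure stability. Of 168 shares of cells, 151 stayed within the interval. With TPM no ratio of Mkl1 to P1 was formed, since it is listed at 0 there. The causes of these changes were not tested.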
